A study of Mus musculus with 6 samples.

Results

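The transcripts of 10 tetraspanin genes (Cd63, Tspan8, Cd9, Cd81, Cd82, Cd151, Tspan4, Tspan7, Tspan31 and Tspan33) were picked out by gene name from 25102 genes measured in liver, and all 10 were found. The libraries came from 3 livers of the DEN+CCl4 group and 3 livers of the control group, all from male C57BL/6J mice that were 2 weeks of age at the start. Mice of the first group had been given 1 mg/kg of the carcinogen diethylnitrosamine (DEN) as 1 intraperitoneal dose and, from about 6 weeks after it, the liver toxin carbon tetrachloride (CCl4) at 0.2 mL/kg with 2 injections per week for up to 14 weeks, which the labels call a hepatocellular carcinoma model. The labels name no injection for the controls, give no age at collection, and do not say whether tumour or surrounding tissue was taken. They number the livers without naming separate animals, so the spread between libraries may be partly technical.

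Tetraspanins are small proteins that span the membrane several times and gather integrins, proteases and receptors into patches of the plasma membrane and of endosomes. Some of them, Cd63, Cd9 and Cd81 among them, are widely used to mark the small vesicles that cells release. In liver the family is found in hepatocytes as well as in duct, vessel and blood cells, so a bulk liver library sums over all of these.

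Values are FPKM, the fragments of a gene scaled to its length and to the mapped fragments of the library, so levels of different genes can be set side by side. Where 3 values of a group are given, they stand in the order of replicates 1, 2 and 3. Differences between the groups are given as log2 fold changes, DEN+CCl4 minus control, of log2(FPKM + 1), which understate the change of genes with low values. They come from 1 limma fit over the 8528 genes that average 1 FPKM or more, and a gene counts as called at an adjusted p of 0.05 or less over all of these. The 10 genes were chosen with the results of this same comparison known. Their differences are therefore a description, given with standard errors (SE) and without p-values. Each SE is the moderated one of the fit, drawn towards that of genes with a like level. It can therefore be smaller than the spread of the gene's own libraries would give.

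Of the members, 3 stood above every control library in each DEN+CCl4 library, namely Cd63, Tspan8 and Cd9, and Tspan31 had the highest level of the family in every library. The 250 bases before the RefSeq start of each of these genes (GRCm38.p6, all 5′ to 3′ on the gene's own strand) are shown because these are the members on which the results turn. Capitals mark the letters GTTAAT, the core of each arm of the site of the liver factor HNF1, and GGGCGG, the GC box, on either strand.
Cd63, chr10:128909095-128909344, plus strand: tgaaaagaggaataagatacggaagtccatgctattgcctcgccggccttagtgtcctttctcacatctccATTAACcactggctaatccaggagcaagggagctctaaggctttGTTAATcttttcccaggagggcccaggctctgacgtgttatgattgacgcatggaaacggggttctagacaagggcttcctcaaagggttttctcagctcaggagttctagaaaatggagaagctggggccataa
Tspan8, chr10:115817034-115817283, plus strand: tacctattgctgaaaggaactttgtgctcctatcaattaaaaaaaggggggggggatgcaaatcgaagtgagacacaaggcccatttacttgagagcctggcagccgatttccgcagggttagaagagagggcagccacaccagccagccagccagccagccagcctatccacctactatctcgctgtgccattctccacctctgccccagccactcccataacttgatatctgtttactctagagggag
Cd9, chr6:125494761-125495010, minus strand: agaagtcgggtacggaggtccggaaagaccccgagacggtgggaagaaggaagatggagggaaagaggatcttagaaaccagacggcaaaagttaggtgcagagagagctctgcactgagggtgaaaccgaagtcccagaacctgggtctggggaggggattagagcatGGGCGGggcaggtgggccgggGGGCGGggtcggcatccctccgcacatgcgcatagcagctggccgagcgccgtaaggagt
Tspan31, chr10:127070262-127070511, minus strand: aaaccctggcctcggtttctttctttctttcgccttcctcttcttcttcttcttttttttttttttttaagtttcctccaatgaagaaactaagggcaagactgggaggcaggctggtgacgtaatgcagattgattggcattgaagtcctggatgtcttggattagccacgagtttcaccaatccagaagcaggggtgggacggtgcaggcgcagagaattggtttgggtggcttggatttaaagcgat
The Cd63 window held GTTAAT at 2 places, and the Cd9 window held GGGCGG at 2 places. Of 32851 RefSeq windows of this length, 6.43% held GTTAAT and 32.7% held GGGCGG. None of these 4 windows held TATAAA (the TATA box, in 12.4% of all windows), TGANTCA (the AP-1 site, 6.75%), CACGTG (the E-box, 6.02%) or CATTCC (the core bound by TEAD factors, 12.6%), searched on both strands with overlaps counted. The Tspan8 and Cd63 windows had 4 and 6 CpG dinucleotides, against a median of 6 over all windows, while the Cd9 window had 16 and the Tspan31 window 7. The starts used by RefSeq for all 4 genes lie inside the GENCODE M21 genes, downstream of their outermost start.

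The libraries differed in scale before any gene was compared. Mitochondrially encoded genes held 64.2% of the summed FPKM of DEN+CCl4 replicate 3 and between 26.6% and 43.0% in the other 5 libraries. Over the tested genes the median level in that library was 1.19 FPKM, against 3.43 to 4.46 FPKM in the others, so most genes read low there as deposited. The differences of the tested tetraspanins are therefore also given after median-ratio scaling, in which each library was divided by the median ratio of its genes to their geometric mean over libraries. Over all genes that were tested, the median difference was -0.27 on the log2 scale as deposited and 0.01 after that scaling. All 8 hepatocyte markers were present in every library, with Alb, the serum albumin gene, at 7482 to 24459 FPKM in DEN+CCl4 livers and 13751 to 23556 FPKM in control livers, and limma called 0 of them (1, with DEN+CCl4 lower, had an unadjusted p under 0.05). They did not move together. Of the 8, 2 had the higher mean in DEN+CCl4 livers as deposited and 4 after scaling. The 2 were Apoa1 and Hnf4a. Apoa1 was at 10250, 35125 and 4111 FPKM in DEN+CCl4 livers and 10628 to 12689 FPKM in control livers. Hnf4a was at 100, 120 and 22.1 FPKM in DEN+CCl4 livers and 55.3 to 89.7 FPKM in control livers. Cps1, the first enzyme of the urea cycle, was at 111, 43.9 and 12.9 FPKM in DEN+CCl4 livers and 120 to 121 FPKM in control livers, without overlap also after scaling. Tat, a tyrosine-degrading enzyme, was at 870, 222 and 22.0 FPKM in DEN+CCl4 livers and 660.1 to 1012 FPKM in control livers, and Ttr, the serum protein transthyretin, at 4130, 2103 and 219 FPKM in DEN+CCl4 livers and 2891 to 6045 FPKM in control livers. The part of these differences in the tetraspanin values was not tested.

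Cd63, the tetraspanin of late endosomes, lysosomes and released vesicles and a surface partner of the protease inhibitor Timp1, was at 4.06, 27.0 and 7.61 FPKM in the DEN+CCl4 livers, against 0.70, 0.53 and 0.84 FPKM in the controls. The groups did not overlap, and the lowest DEN+CCl4 library lay well above the highest control. Its mean was 12.9 ± 12.4 FPKM in DEN+CCl4 livers and 0.690 ± 0.155 FPKM in control livers (SD, n = 3 each), a ratio of means of 18.7. The log2 fold change was 2.67 (SE 0.56), the 14th highest among the 8528 tested genes, and 2.99 (SE 0.61) after median-ratio scaling. Cd63 lies on chromosome 10 (128900989 to 128912822, plus strand, GRCm38), and no other gene of GENCODE M21 overlaps it.

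Tspan8, a tetraspanin of gut and other epithelia known in human tumours as the antigen CO-029, was at 0.23, 4.34 and 20.1 FPKM in the DEN+CCl4 livers. It was listed at 0, 0 and 0.02 FPKM in the controls. The groups did not overlap, but the DEN+CCl4 livers themselves spread widely, with replicate 1 near the controls and replicate 3 far above the rest. The log2 fold change was 2.36 (SE 0.45), the 17th highest of all tested genes, and 2.70 (SE 1.21) after median-ratio scaling. The SE of 0.45 is moderated, and with no filter on low values the same difference had an SE of 0.90. No fold is given against controls listed at 0. The gene lies on chromosome 10 (115816832 to 115849893, plus strand) and shares 4 exonic bases with the antisense transcript 4930422I22Rik, which read at most 0.05 FPKM in any library.

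Cd9, a partner of integrins and of the immunoglobulin-like proteins Igsf8 and Ptgfrn, was at 2.82, 4.84 and 5.43 FPKM in the DEN+CCl4 livers, against 2.28, 0.65 and 1.67 FPKM in the controls. The groups did not overlap, although DEN+CCl4 replicate 1 and control replicate 1 were close. The means were 4.36 ± 1.37 FPKM in DEN+CCl4 livers and 1.53 ± 0.824 FPKM in control livers (SD, n = 3 each). The log2 fold change was 1.10 (SE 0.52), and 1.49 (SE 0.59) after median-ratio scaling. Cd9 was not called. It lies on chromosome 6 (125460266 to 125494791, minus strand) and overlaps the antisense transcripts Gm28809 and Gm26728, which read at most 0.28 and 0.01 FPKM in any library.

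In the fit over all genes 2 of the 9 tested members, Cd63 and Tspan8, were called higher in DEN+CCl4 livers and 0 were called lower, where 0.833% of all tested genes were called higher and 0.645% lower (1.48% in either direction). Cd63 and Tspan8 averaged 0.690 and 0.00667 FPKM in control livers, so they passed the filter only through the DEN+CCl4 livers. Nothing is read from these counts, or from those of overlap that follow, since the genes were chosen on this comparison. Groups that did not overlap were seen for 3 of the 9 tested members, all with DEN+CCl4 higher, and for 3.01% of all tested genes with DEN+CCl4 higher and 5.35% with it lower (8.36% in all). After median-ratio scaling the same 3 members (Cd63, Tspan8 and Cd9) still did not overlap, and neither did 7.63% of all tested genes with DEN+CCl4 higher and 6.52% with it lower (14.2% in all), but limma called 0 members (2 had an unadjusted p under 0.05, both with DEN+CCl4 higher). Leaving out 1 library at a time moved the log2 fold change of Cd63 between 1.97 and 3.20, and its call was lost without any 1 of the controls (2.67, 2.60 and 2.73 without replicates 1, 2 and 3) or without DEN+CCl4 replicate 3 (2.82). For Tspan8 the call was lost without control replicate 2 (2.36) and without DEN+CCl4 replicate 3 (1.35). Over all tested genes limma called 71 higher and 55 lower as deposited. It called 13 higher and 10 lower without control replicate 1, 8 and 6 without control replicate 2, and 10 and 9 without control replicate 3. Without DEN+CCl4 replicate 3, as after median-ratio scaling, limma called 0 of all tested genes. Lost calls in these settings were thus not particular to Cd63 and Tspan8.

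**Figure D1:**
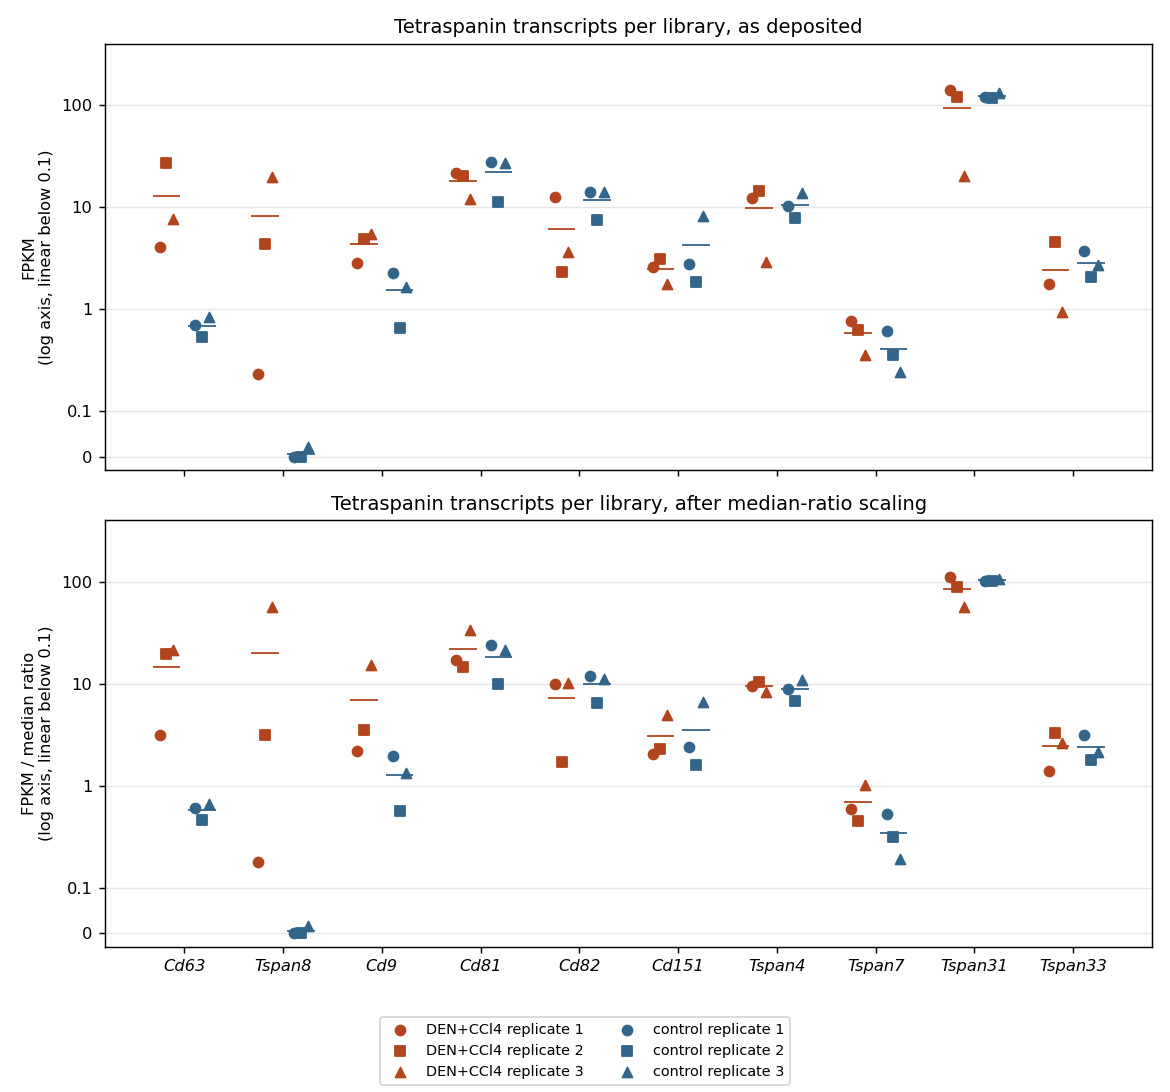
FPKM of the 10 tetraspanin genes in each library, as deposited (top) and after median-ratio scaling (bottom), on a log axis that is linear below 0.1. Points are libraries, with 1 symbol per replicate number, and short lines are group means. Cd63, Tspan8 and Cd9 are above all controls in each DEN+CCl4 library in both panels, while the other 7 overlap.

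Cd81, a broadly expressed tetraspanin of the B-cell co-receptor and, in human hepatocytes, an entry receptor of hepatitis C virus, was the second most abundant member in controls. It was at 21.9, 20.2 and 12.1 FPKM in the DEN+CCl4 livers, against 28.1, 11.4 and 26.9 FPKM in the controls. The groups overlapped fully, with a log2 fold change of -0.22 (SE 0.83) as deposited and 0.24 (SE 0.47) after median-ratio scaling, so that even the sign depended on the scaling. Cd81 lies on chromosome 7 (143052739 to 143067934, plus strand), and its overlapping transcript R74862, on the opposite strand, read 0.03 to 0.18 FPKM.

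The ratio of 2 members within a library is free of that library's scale. The Cd63 level was 0.185, 1.34 and 0.627 times the Cd81 level in the DEN+CCl4 livers, against 0.0249, 0.0465 and 0.0312 times in the controls. The Cd9 level was 0.129, 0.240 and 0.448 times that of Cd81 in the DEN+CCl4 livers, against 0.0811, 0.0571 and 0.0620 times in the controls. Neither ratio overlapped between the groups. Cd82 over Cd81 did overlap, at 0.577, 0.115 and 0.298 in DEN+CCl4 livers and 0.498, 0.659 and 0.519 in control livers. Tspan31 over Cd81 overlapped too, at 6.50, 6.01 and 1.66 in DEN+CCl4 livers and 4.27, 10.4 and 4.94 in control livers. The members were chosen on this comparison, and the share of non-overlapping ratios over all gene pairs was not computed, so these ratios are a description.

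Cd82, known as a suppressor of metastasis and of cell motility, was at 12.6, 2.33 and 3.61 FPKM in the DEN+CCl4 livers, against 14.0, 7.51 and 14.0 FPKM in the controls. DEN+CCl4 replicates 2 and 3 lay below every control and replicate 1 lay among them. The difference on the log2 scale was -1.07 (SE 0.69), the lowest of the tested members, and -0.62 (SE 0.58) after scaling, and Cd82 was not called. After scaling DEN+CCl4 replicate 2 alone, at 1.70, stayed below the controls, which spanned 6.49 to 12.0. The level of Cd82 was 4.48, 0.481 and 0.665 times that of Cd9 in the DEN+CCl4 livers, against 6.14, 11.6 and 8.38 times in the controls, so that Cd9 exceeded Cd82 in 2 libraries, both of them DEN+CCl4.

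The region of Cd82 also holds other transcripts. The long noncoding RNA Gm10804, on the opposite strand of chromosome 2 across the 5′ part of Cd82 (93419111 to 93463140, minus strand) and sharing 0 exonic bases with it, was at 0.97, 0.05 and 0 FPKM in the DEN+CCl4 livers, against 4.13, 7.56 and 2.96 FPKM in the controls. By limma Gm10804 fell by 2.13 on the log2 scale (adjusted p = 0.00174 over all tested genes). Every DEN+CCl4 library was under 1 FPKM, so Gm10804 passed the filter only through the control livers, and nothing is read from its call. The call was lost after median-ratio scaling (-1.99, limma adjusted p = 0.268), without control replicate 2 (-1.82) and without DEN+CCl4 replicate 3 (-1.96). In the first and last of these settings limma called 0 of all tested genes, and without control replicate 2 it called 8 higher and 6 lower. The microRNA gene Mir7001, within Cd82 on its own strand, read 0 to 2.63 FPKM in DEN+CCl4 livers and 0.26 to 1.77 FPKM in control livers. The use of strand in counting is not given in the sources used here, so reads of the introns of one and the exons of the other cannot be told apart.

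Cd151, which binds laminin-binding integrins at hemidesmosomes and focal contacts, and Tspan4, known from the migration-dependent vesicles called migrasomes, are neighbours on chromosome 7, 3766 bases apart (141467392 to 141471473 and 141475240 to 141493427, both plus strand). Cd151 was at 2.62, 3.12 and 1.77 FPKM in the DEN+CCl4 livers, against 2.77, 1.84 and 8.27 FPKM in the controls. Tspan4 was at 12.3, 14.4 and 2.94 FPKM in the DEN+CCl4 livers, against 10.3, 7.85 and 13.7 FPKM in the controls. For both genes the groups overlapped. The log2 fold changes were -0.42 (SE 0.54) for Cd151 and -0.29 (SE 0.72) for Tspan4, and after scaling they were -0.05 (SE 0.45) and 0.10 (SE 0.29), so that the sign of Tspan4 turned. Tspan4 shares 13.4% of its exonic bases with the oppositely oriented gene Chid1, which read 0.56 to 1.10 FPKM in DEN+CCl4 livers and 0.26 to 2.02 FPKM in control livers, and Cd151 shares 7.04% with Gm10575, which read at most 0.37 FPKM.

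Tspan31, a tetraspanin of little-known function whose human gene is co-amplified with its neighbour CDK4 in sarcomas, was by far the most abundant. It was at 142, 121 and 20.2 FPKM in the DEN+CCl4 livers, against 120.2, 119 and 133 FPKM in the controls. Before scaling, DEN+CCl4 replicate 3 was the only low one. After scaling the DEN+CCl4 livers stood at 112, 88.4 and 56.6, against 103 to 106 in the controls, so replicates 2 and 3 were below all controls and replicate 1 above them. The log2 fold change was -0.80 (SE 1.02) as deposited and -0.33 (SE 0.43) after scaling. Tspan31 (chromosome 10, 127067280 to 127070264, minus strand) overlaps Cdk4 at their 3′ ends, on the opposite strand, and 29.2% of its exonic bases are also Cdk4 exons. Cdk4, a kinase of the cell cycle, was at 8.81, 26.8 and 2.53 FPKM in the DEN+CCl4 livers, against 20.6, 10.1 and 26.6 FPKM in the controls, so its order among the libraries was not that of Tspan31.

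Tspan33, one of the tetraspanins that escort the protease Adam10 and a gene known from mouse red cell formation, was at 1.78, 4.55 and 0.94 FPKM in the DEN+CCl4 livers, against 3.71, 2.08 and 2.70 FPKM in the controls. The groups overlapped, with a log2 fold change of -0.28 (SE 0.51), or 0.01 (SE 0.30) after scaling. It lies on chromosome 6 (29694222 to 29718559, plus strand). Tspan7, on chromosome X (10485158 to 10596605, plus strand) and best known from neurons, was at 0.76, 0.62 and 0.36 FPKM in the DEN+CCl4 livers, against 0.61, 0.36 and 0.24 FPKM in the controls. It was the 1 member below the filter of 1 FPKM and has no fitted value.

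**Figure D2:**
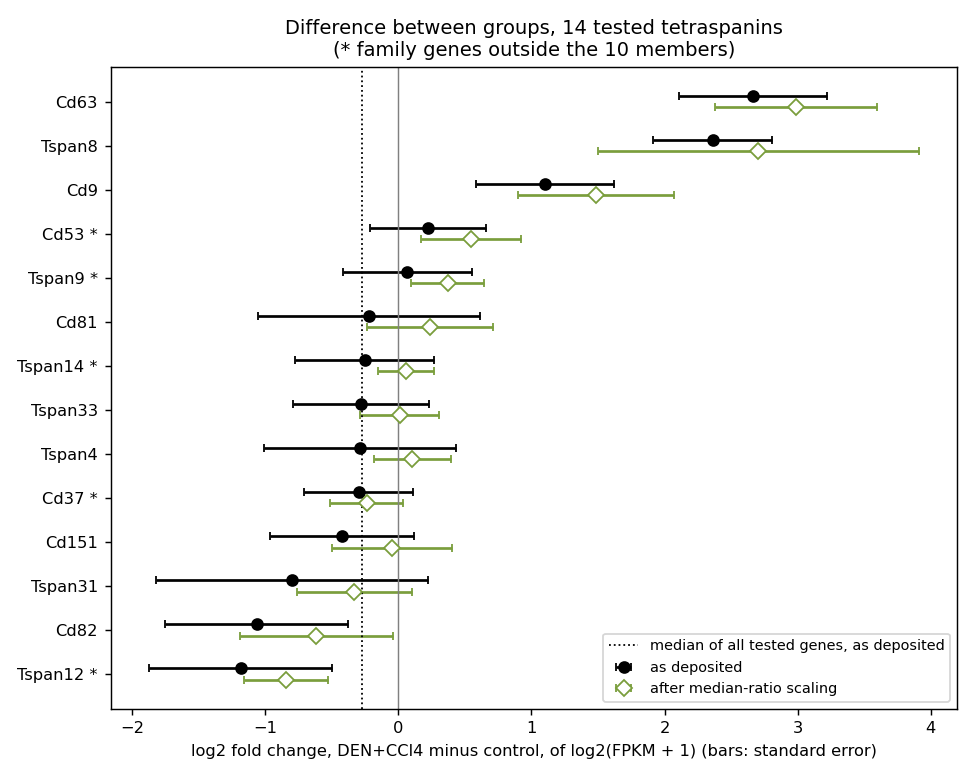
Log2 fold change of log2(FPKM + 1), DEN+CCl4 minus control, for the 14 tested tetraspanins, as deposited (filled) and after median-ratio scaling (open). Bars are the moderated standard errors of each fit. Cd63, Tspan8 and Cd9 lie at 1.10 or above in both, and the dotted line at -0.27 is the median of all tested genes as deposited.

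Shares within the family were also free of the scale of a library. Summed over the 28 tetraspanins in the table and after median-ratio scaling, the family stood at 174, 164 and 234 in the DEN+CCl4 livers, against 179, 146 and 178 in the controls. The groups overlapped. Of the summed FPKM, Tspan31 made up 64.0%, 53.9% and 24.2% in the DEN+CCl4 livers, against 57.7%, 70.2% and 59.5% in the controls.

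Cd63 made up 1.83%, 12.0% and 9.14% of the family in the DEN+CCl4 livers, against 0.336%, 0.313% and 0.376% in the controls. Its rank among the 28 was 6, 2 and 4 in the DEN+CCl4 libraries and 13, 14 and 13 in the controls. Tspan8 made up 0.103%, 1.93% and 24.1% in the DEN+CCl4 livers, and at most 0.00894% in any control. In DEN+CCl4 replicate 3 it was second in rank, level with Tspan31, whereas in replicate 2 the second place was held by Cd63.

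**Figure D3:**
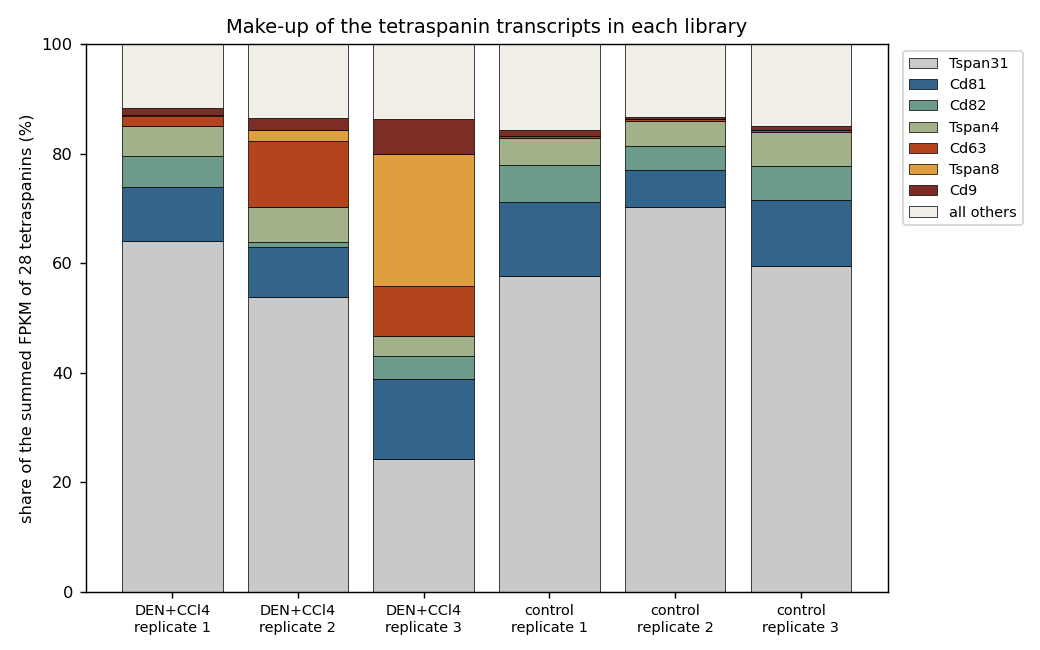
Share of each tetraspanin in the summed FPKM of the 28 tetraspanins of each library, with the DEN+CCl4 libraries on the left. Tspan31 holds 53.9% or more in every library except DEN+CCl4 replicate 3, where it holds 24.2% and Tspan8 24.1%.

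The remaining family members were next counted, from a list of 21 further mouse tetraspanins of which 18 were in the table under these names (Tspan1, Tspan11 and Prph2 were not analysed here). Only 5 of the 18 passed the filter, and limma called none of these 5 in either direction (0 had an unadjusted p under 0.05, and the smallest adjusted p was 0.791). Their median log2 fold change was -0.25, against -0.27 for all tested genes. Tspan12, which helps the receptor Fzd4 respond to Norrin, was at 9.03, 6.62 and 1.33 FPKM in the DEN+CCl4 livers, against 14.1, 8.76 and 13.2 FPKM in the controls. DEN+CCl4 replicates 2 and 3 were below all controls as deposited and all 3 were after scaling, with log2 fold changes of -1.18 (SE 0.69) and -0.84 (SE 0.32), neither past the threshold (limma adjusted p = 0.791 as deposited).

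The leukocyte tetraspanins Cd53 and Cd37 had log2 fold changes of 0.22 (SE 0.43) and -0.30 (SE 0.41). Cd53 was at 1.79, 1.66 and 1.47 FPKM in DEN+CCl4 livers and at 2.16, 0.95 and 0.87 FPKM in control livers. Cd37 was at 1.86, 1.35 and 0.10 FPKM in DEN+CCl4 livers and at 1.48, 1.55 and 1.17 FPKM in control livers. Tspan14, another escort of Adam10, and Tspan9, known from platelets and their precursors, had log2 fold changes of -0.25 (SE 0.52) and 0.07 (SE 0.48). For all 4 the groups overlapped (limma adjusted p = 0.996 for each).

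The other 13 were under 1 FPKM on average. Tspan17, a further Adam10 escort, was at 0.51 to 0.95 FPKM in DEN+CCl4 livers and 0.42 to 0.64 FPKM in control livers. Rom1, a gene of photoreceptors, was at 0.30 to 0.69 FPKM in DEN+CCl4 livers and 0.24 to 0.58 FPKM in control livers. Upk1a, a gene of the bladder lining, was at 0 to 0.89 FPKM in DEN+CCl4 livers and 0.35 to 0.46 FPKM in control livers. Of the 18, 13 had the higher mean in DEN+CCl4 livers. Tspan18, named after its values were seen, was the only one of the 18 without overlap as deposited. It was at 0.17, 0.43 and 0.17 FPKM in DEN+CCl4 livers and 0.06, 0.07 and 0.05 FPKM in control livers. After scaling Tspan15 and Rom1 were also without overlap, with DEN+CCl4 higher. The share of such genes among all genes below the filter was not computed, so nothing is read from these counts.

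Proteins that tetraspanins hold at the membrane formed a list of 21 genes, of which 8 passed the filter and limma called none in either direction (1, with DEN+CCl4 higher, had an unadjusted p under 0.05, and the smallest adjusted p was 0.185). Their median log2 fold change was 0.06 as deposited and 0.42 after scaling, against -0.27 and 0.01 for all tested genes. Itga3, an integrin chain known to bind Cd151 tightly, was at 1.91, 10.9 and 6.27 FPKM in the DEN+CCl4 livers, against 1.20, 1.49 and 1.07 FPKM in the controls. The groups did not overlap, with a log2 fold change of 1.49 (SE 0.53, limma adjusted p = 0.185), and 1.87 (SE 0.65) after scaling. Without DEN+CCl4 replicate 1 Itga3 was called (2.05, limma adjusted p = 0.0346).

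The other 3 partners with the highest levels overlapped between the groups. Egfr, the epidermal growth factor receptor, was at 27.0, 15.3 and 3.51 FPKM in the DEN+CCl4 livers, against 21.9, 9.53 and 18.5 FPKM in the controls. Itgb1, the common beta chain of many integrins, was at 4.12 to 9.01 FPKM in DEN+CCl4 livers and 5.01 to 8.69 FPKM in control livers, and Itga5, a fibronectin receptor chain, at 2.27 to 12.6 FPKM in DEN+CCl4 livers and 4.09 to 8.75 FPKM in control livers. Timp1, the ligand of Cd63, was below the filter, at 0.39, 1.35 and 2.16 FPKM in DEN+CCl4 livers and 0.05, 0.15 and 0.09 FPKM in control livers, without overlap (named after its values were seen). It was not alone in this. Of the 21 partners, 5 were without overlap with DEN+CCl4 higher (Itga3, Timp1, Itga2, Itga6 and Hbegf) and 1 with it lower (Epcam). The share of such genes among all genes below the filter was not computed.

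Genes of endosomal sorting, lysosome membranes and vesicle release, the compartments in which Cd63 resides, formed a list of 25, of which 18 passed the filter. Limma called none in either direction (0 had an unadjusted p under 0.05, and the smallest adjusted p was 0.796). Their median log2 fold change was -0.30 as deposited and 0.10 after scaling, against -0.27 and 0.01 for all tested genes. Over all tested genes 2187 had a positive and 6341 a negative log2 fold change as deposited, and 4382 and 4146 after scaling. Of the 18 in the list, 4 had a positive and 14 a negative one as deposited, and 12 and 6 after scaling. The balance of signs in the list thus turned with the scaling, as it did over all tested genes. The most abundant were Lamp1, a main protein of the lysosome membrane, at 32.8, 22.4 and 16.6 FPKM in DEN+CCl4 livers and 58.3, 16.2 and 42.0 FPKM in control livers, and Rab7, the GTPase of late endosomes, at 32.0, 30.8 and 8.82 FPKM in DEN+CCl4 livers and 34.7, 18.8 and 30.6 FPKM in control livers. Ap2m1, of the clathrin adaptor, was at 14.9, 17.6 and 6.01 FPKM in DEN+CCl4 livers and 26.3, 15.0 and 19.5 FPKM in control livers, and Chmp4b, of the membrane-cutting ESCRT-III complex, at 15.4, 14.8 and 9.03 FPKM in DEN+CCl4 livers and 14.2, 7.59 and 14.4 FPKM in control livers. All 4 overlapped between the groups. Whether Cd63 differed more than these genes was not tested.

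Markers of the cell types in which tetraspanins are also found were summed in each library. In bulk liver, fewer cells of a type and less RNA per cell cannot be told apart. Stellate cell and myofibroblast markers, after median-ratio scaling, summed to 17.5, 29.1 and 44.8 in the DEN+CCl4 livers, against 11.4, 8.09 and 10.9 in the controls, without overlap. Before scaling the sums were 16.0 to 40.0 FPKM in DEN+CCl4 livers and 9.35 to 13.7 FPKM in control livers, 9 of 10 markers had the higher mean in DEN+CCl4 livers after scaling, and limma called 0 of the 6 tested (3, all with DEN+CCl4 higher, had an unadjusted p under 0.05). Neutrophil markers summed to 15.4, 5.81 and 23.2 FPKM in DEN+CCl4 livers and 6.02, 2.35 and 1.84 FPKM in control livers, with overlap. S100a8 among them was the 1 of all marker genes that limma called, higher in DEN+CCl4 livers (log2 fold change 1.63, adjusted p = 0.0336). It was at 0.76, 0.42 and 0.34 FPKM in control livers, so it passed the filter of 1 FPKM only through the DEN+CCl4 livers. Nothing is read from its call. The call of S100a8 was lost after median-ratio scaling (2.00, limma adjusted p = 0.462), without control replicate 1, 2 or 3 (1.75, 1.59 and 1.55) and without DEN+CCl4 replicate 3 (1.08). In the first and last of these settings limma called 0 of all tested genes. Without control replicates 1, 2 and 3 it called 13, 8 and 10 of all tested genes higher and 10, 6 and 9 lower.

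Bile duct markers summed to 27.4, 54.1 and 33.6 FPKM in the DEN+CCl4 livers, against 32.1, 19.0 and 25.9 FPKM in the controls, with overlap. Of the markers, 6 of 8 had the higher mean in DEN+CCl4 livers, and limma called 0 of the 3 tested (0 had an unadjusted p under 0.05). After scaling the sums were 21.5, 39.4 and 94.4 in DEN+CCl4 livers and 27.5, 16.4 and 20.6 in control livers. Most of this came from Spp1 and Tm4sf4. In DEN+CCl4 replicate 3, the library with the most Tspan8 as deposited (20.1 FPKM), the markers were uneven. As deposited, Krt19 was at 0.13, Krt7 at 0.03 and Epcam at 0 FPKM there. The control livers had 0.50 to 0.93, 0.11 to 0.16 and 0.17 to 0.22 FPKM of these. Cldn4 was at 0 FPKM there and in every control, and Cftr at 0.03 FPKM there and at 0 to 0.02 FPKM in control livers. After scaling Krt19 was at 0.365 and Krt7 at 0.084 there, against 0.397 to 0.797 and 0.087 to 0.138 in control livers, and Epcam stayed at 0. Sox9 was at 1.06 FPKM in that library and at 0.22 to 0.63 FPKM in control livers, and Spp1 was at 24.2 FPKM in that library and at 8.20 to 14.9 FPKM in control livers. In DEN+CCl4 replicate 2 Krt19 was at 3.06, Sox9 at 2.98 and Epcam at 0.10 FPKM beside 4.34 FPKM of Tspan8. The part of duct cells in the Tspan8 values was not tested.

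Macrophage markers summed to 54.0, 32.1 and 24.3 FPKM in DEN+CCl4 livers and 97.0, 47.1 and 36.4 FPKM in control livers as deposited, and to 42.3, 23.4 and 68.2 in DEN+CCl4 livers and 83.1, 40.7 and 28.9 in control livers after scaling, with overlap in both. Of the 10 markers, 3 had the higher mean in DEN+CCl4 livers as deposited and 6 after scaling, and limma called 0 of the 6 tested (0 had an unadjusted p under 0.05). Gpnmb was higher in every DEN+CCl4 liver, at 0.52, 0.76 and 0.24 FPKM, against 0.05, 0 and 0.02 FPKM in control livers. Trem2 was without overlap only after scaling, at 0.525, 0.525 and 0.646 in DEN+CCl4 livers and 0.214, 0.121 and 0.103 in control livers. Timd4 was lower in every DEN+CCl4 liver, at 0.24, 0.25 and 0.05 FPKM, against 1.83, 0.96 and 0.76 FPKM in control livers. Sums of endothelial markers were 12.6 to 48.1 FPKM in DEN+CCl4 livers and 19.7 to 31.7 FPKM in control livers. Sums for B and plasma cells were 1.65 to 6.91 FPKM in DEN+CCl4 livers and 4.09 to 5.71 FPKM in control livers, and those for T and NK cells were 2.60 to 3.60 FPKM in DEN+CCl4 livers and 1.50 to 1.79 FPKM in control livers, the last without overlap. Much of the T and NK cell sums was Nkg7, at 1.34, 1.74 and 1.93 FPKM in DEN+CCl4 livers and 0.93 to 1.03 FPKM in control livers. It was the 1 of these 6 markers that was tested, and it was not called. Of the 6, 5 had the higher mean in DEN+CCl4 livers and 2 were without overlap. Platelet markers summed to 3.05 to 6.89 FPKM in DEN+CCl4 livers and 2.50 to 4.34 FPKM in control livers, and red cell markers to 85.2 to 1548 FPKM in DEN+CCl4 livers and 138 to 384 FPKM in control livers. No marker was at 0 in every library. The part of these cells in the tetraspanin values was not tested.

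**Figure D4:**
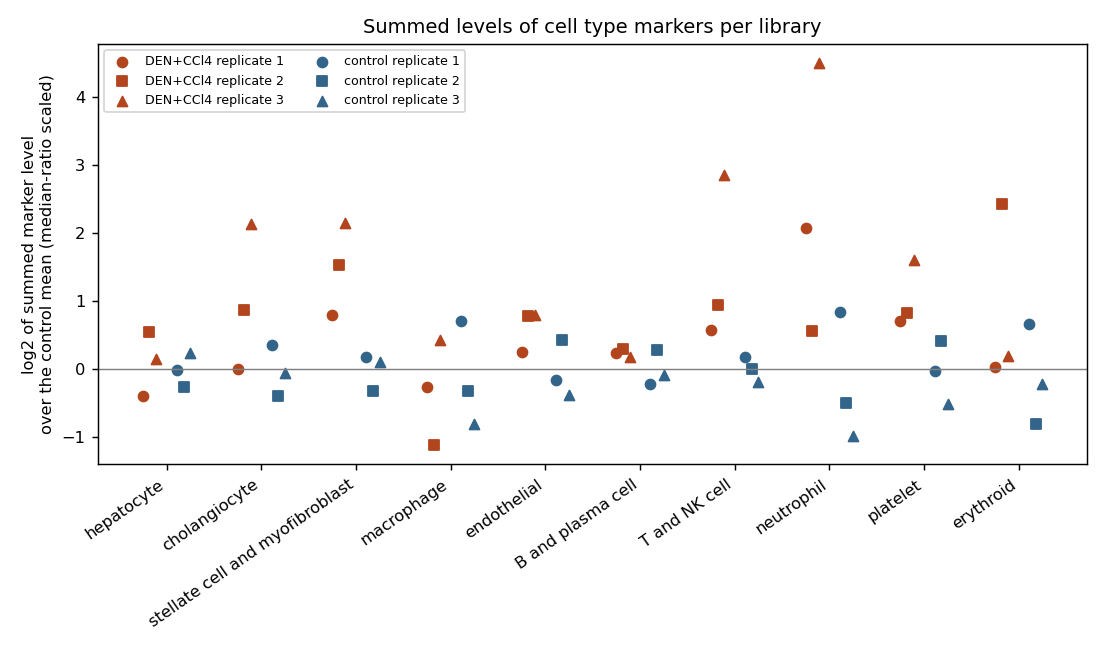
Log2 of the summed, median-ratio-scaled level of each marker list over the control mean, per library. The stellate cell and myofibroblast sums (17.5 to 44.8 in DEN+CCl4 livers, 8.09 to 11.4 in control livers), the T and NK cell sums (2.04 to 9.85 in DEN+CCl4 livers, 1.19 to 1.53 in control livers) and the platelet sums (4.60 to 8.56 in DEN+CCl4 livers, 1.99 to 3.75 in control livers) do not overlap, while those of hepatocytes and macrophages do.

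The genes with the pattern most like that of Cd63 over the 6 libraries, by Pearson's r of scaled log2 values, were Serpina12, Apoa4, Cyp2a4, Ptges and Wfdc15b, with r of 0.994 to 0.997. Predicted or clone-named genes and pseudogenes were left out of this search. Serpina12, which encodes the secreted protein vaspin, was at 23.9, 79.7 and 26.4 FPKM in the DEN+CCl4 livers, against 9.80, 7.78 and 10.5 FPKM in the controls. Ptges, a prostaglandin E synthase, was at 0.80, 6.59 and 1.89 FPKM in DEN+CCl4 livers and 0.05, 0.05 and 0.08 FPKM in control livers. Serpina12 and Ptges share with Cd63 a peak in DEN+CCl4 replicate 2 as deposited. On the scaled values, from which r was taken, Cd63, Serpina12 and Ptges were instead highest in DEN+CCl4 replicate 3. They stood there at 21.4, 74.1 and 5.31, against 19.7, 58.1 and 4.80 in DEN+CCl4 replicate 2. The genes most like Tspan8 were Tmem212, Hilpda, Dscr3, Cpe and Ltb, with r of 0.998 to 0.999. Cpe, a carboxypeptidase of the secretory pathway, was at 0.23, 4.28 and 11.1 FPKM in the DEN+CCl4 livers, against 0.14, 0 and 0 FPKM in the controls. With 6 points in 2 groups and a shared scale per library such values of r are a description only.

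The annotation in the authors' deposited table placed all 10 members under integral component of plasma membrane, a term that 2.75% of all genes carry. Extracellular exosome was given to 5 members (Cd63, Tspan8, Cd9, Cd81 and Cd82), against 18.2% of the tested genes, and the 3 members without overlap between the groups are all among these 5, as are Cd81 and Cd82, which overlapped. Integrin binding was given to Tspan8, Cd9, Cd151 and Tspan4. The lysosome pathway was given to Cd63 alone of the 10 and the p53 signalling pathway to Cd82 alone.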

How the data were processed

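The labels' protocols describe total RNA with a RIN over 7, poly(A) selection from 5 ug and a SMARTER mRNA-Seq kit. The authors deposited FPKM values, 1 column for each of the 6 libraries, per the file headers. HISAT, StringTie and GRCm38 appear in the submitters' processing notes; versions, annotation release and strand setting were not given in the sources used here. With no counts deposited, depth is unknown and no counting interval was computed.

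Coordinates come from GENCODE M21, which held 25051 of the 25102 gene identifiers, and promoters from RefSeq (GRCm38.p6), where all 10 members matched. Genes averaging 1 FPKM or more were fitted as log2(FPKM + 1) with limma 3.58.1 in R 4.3.3 (trended empirical Bayes, two-sided, no covariates), with Benjamini-Hochberg adjustment and a threshold of 0.05. The fit was tested on simulated data with known changes. Summaries and plots used Python 3.11.15, pandas 2.3.3 and matplotlib 3.10.9.

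The members and lists were chosen with earlier results of these data known. Named are all members, their overlapping genes with a value, the 8 other tetraspanins and the 4 partners and 4 endosome and vesicle genes with the highest mean, any past the threshold, and the 5 genes most like Cd63 and most like Tspan8. Marker genes named singly, Timp1, Itga2, Itga6, Hbegf, Epcam, Tspan15 and Tspan18 were picked after their values were seen. The alternatives tried are given with their effect in the closing section.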

Additional observations from a re-analysis of the deposited data

How the results depend on the processing

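The count of tetraspanin members called higher was 2. It was 0 with a pseudocount of 0.1, with no filter, with median-ratio scaling, with mitochondrially encoded genes left out, and with quantile normalization, and 1 (Cd63) with a filter at 5 FPKM, which Tspan8 did not pass. Leaving out 1 library gave 0 to 2, and 0 to 1 together with median-ratio scaling. Among all tested genes, leaving out 1 library gave 0 to 109 called higher and 0 to 270 lower, the most without DEN+CCl4 replicate 1. Together with median-ratio scaling, 294 were called higher and 362 lower without that library, Cd63 among them, and 0 without any other library. Over all genes limma also called 0 higher and 0 lower with no filter, with median-ratio scaling, with quantile normalization and without DEN+CCl4 replicate 3. The lost calls in those settings are thus not particular to the members. With a pseudocount of 0.1, and with mitochondrially encoded genes left out, 6 genes in all were called higher and 3 lower. The cause of these lost calls was not tested. No member was called lower under any of these alternatives. Cd63 and Tspan8 kept their positive sign in all 19 and all 18 alternatives that gave a value, between 1.97 and 3.74 and between 1.27 and 4.86, and Cd9 in all 18, between 0.82 and 1.94. The fold change of Cd81 changed sign in 7 of 19 alternatives, of Tspan4 in 8 of 19, of Cd151 and Tspan33 in 4 of 18 each, and of Cd82 and Tspan31 in 1 of 19 each. The count of partners called higher, 0, became 1 without DEN+CCl4 replicate 1 (Itga3) and 2 together with median-ratio scaling (Itga3 and Igsf8). Counts for other tetraspanins and for endosome and vesicle genes stayed at 0 in these alternatives. Gm10804 (-4.20 to -1.65) and S100a8 (0.99 to 2.71) kept their sign in all 18 alternatives but were called in 6 and 2 of them.

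Tspan14 (-0.25) turned positive with median-ratio scaling (0.055), and with that scaling together with leaving out a library it was 0.12, 0.066 and -0.036 without DEN+CCl4 replicates 1, 2 and 3 and 0.049, 0.066 and 0.045 without control replicates 1, 2 and 3. Leaving out 1 library as deposited gave -0.48 to 0.086 for Tspan14 (positive without DEN+CCl4 replicate 3), -0.19 to 0.32 for Tspan9 (negative without control replicate 2, -0.06, and DEN+CCl4 replicate 2) and -0.57 to 0.11 for Cd37 (positive without DEN+CCl4 replicate 3, and 0.020 there with median-ratio scaling). With the replicate number as a block, 2 members were still called higher (Cd63 and Tspan8). Same-numbered libraries deviated together with r of 0.07, 0.42 and -0.15 for replicates 1, 2 and 3, so the numbers were not taken to pair the livers. Over all genes 71 were called higher and 55 lower as deposited and 0 and 0 with median-ratio scaling (468 and 446 at an unadjusted p under 0.05). Depth, which is unknown, limits the low genes most, Tspan7 and Tspan8 in controls among them.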
